A study of Saccharomyces cerevisiae with 24 samples.

Results

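The genes described here are 9 antioxidant enzyme genes of budding yeast and *YAP1*, the gene of the main transcription factor of the oxidative stress response. They were chosen by systematic name, and all 10 were found among the 5193 genes in the files. They are *CTT1* (YGR088W) and *CTA1* (YDR256C), *SOD1* (YJR104C) and *SOD2* (YHR008C), *TSA1* (YML028W), *AHP1* (YLR109W), *TRX2* (YGR209C), *GPX1* (YKL026C), *GPX2* (YBR244W) and *YAP1* (YML007W). The rule uses names alone and no measured value, although earlier results of these data were known when the genes were chosen. All 10 passed the filter on low counts.

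The libraries came from wild-type *Saccharomyces cerevisiae* W303-1B (MATa, with mutations in *ADE2*, *TRP1*, *CAN1*, *LEU2*, *HIS3* and *URA3*) grown in YPD liquid. All 24 samples share this strain and medium, and no chemical was added as a treatment. The groups differ in the speed at which an OT-2 liquid-handling robot pipetted the culture: 50, 130, 210 or 290 µL/s. There were 6 samples at each speed. In the study's methods the medium held adenine, and the robot put water into the tubes by dilutions calculated from absorbance. Each speed held 3 technical replicates of each of 2 biological replicates, which were clones grown as separate cultures. A library is named by its speed, then B with the number of the biological replicate and T with that of the technical replicate. Each biological replicate was 1 culture, so every p-value here measures the spread between libraries and not between many cultures. Each of the 6 combinations of biological and technical replicate held 1 library per speed. Tests of technical replicate number, and of its interaction with biological replicate, take these libraries as repeats. No combination was itself repeated, so those tests do not measure the spread between repeats of a combination. The labels do not say what libraries with the same technical replicate number shared.

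Reactive oxygen species are removed in yeast by enzymes that act in series. Superoxide dismutases turn superoxide into hydrogen peroxide, catalases split hydrogen peroxide into water and oxygen, and peroxiredoxins and glutathione peroxidases reduce peroxides with electrons that come from thioredoxin or glutathione. Many of these genes are induced by the transcription factor Yap1, whose activity is set largely by oxidation of the protein and its retention in the nucleus, and several also answer to the general stress factors Msn2 and Msn4.

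Expected counts summed to between 11555784 and 15464458 per library. The average count of a member ranged from 62.9 for *GPX2* and 204 for *CTA1* to 12428 for *TSA1*, so values of *GPX2* and *CTA1* carry the largest counting error. The library 50 µL/s B1T3 stood apart, with a mean correlation with the other libraries of 0.974 against 0.986 for the next lowest. Reads that match more than 1 gene were divided by estimation: the count of *TSA1*, which has the close paralog *TSA2*, was within 0.005 of a whole number in 8 of 24 libraries, that of *AHP1* in 9, and those of *TRX2* and *GPX2* in all 24.

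On the TPM scale, which corrects for gene length and for the size of the library, the level of the members spanned a wide range. *TSA1*, the main cytosolic peroxiredoxin, had a median of 1943 TPM (lowest 1728, highest 2469 over 24 libraries). *AHP1*, a peroxiredoxin that prefers alkyl hydroperoxides, had a median of 1604 TPM, and *SOD1*, the cytosolic copper-zinc superoxide dismutase, 1360 TPM. These genes overlapped: *TSA1* was above *AHP1* in 17 of 24 libraries, and *AHP1* above *SOD1* in 18. *SOD2*, the mitochondrial manganese superoxide dismutase, followed at a median of 510 TPM and *TRX2*, a cytosolic thioredoxin, at 485 TPM. *SOD2* was above *TRX2* in 14 of 24 libraries, so that order did not hold beyond the spread, whereas *SOD1* was above *SOD2* in all 24. *CTT1*, the cytosolic catalase T, had a median of 172 TPM, *GPX1*, a glutathione peroxidase, 109 TPM and *YAP1* 92.1 TPM. *GPX1* was above *YAP1* in 18 libraries. *GPX2*, a glutathione peroxidase, at 13.3 TPM and *CTA1*, the peroxisomal catalase A, at 9.88 TPM were the lowest, and *GPX2* was above *CTA1* in all 24 libraries. Of all genes, 98.5% had a lower median TPM than *TSA1*, and 8.03% had a lower median than *CTA1*.

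**Figure D1:**
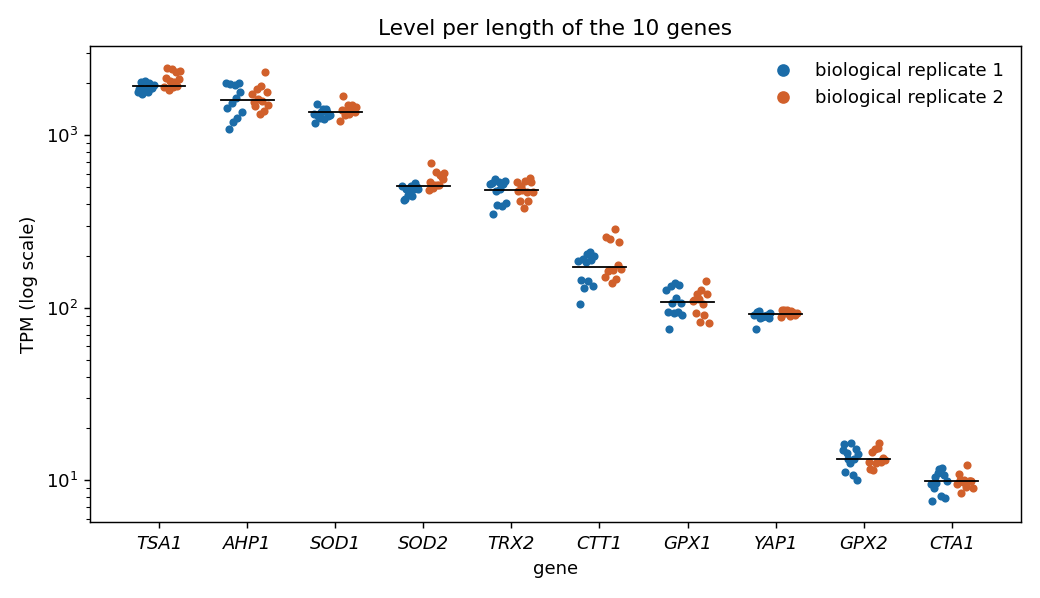
TPM of each gene in 24 libraries on a log axis, in order of the median (black line), with points coloured by biological replicate. *TSA1*, *AHP1* and *SOD1* overlap at the top, from 1090 to 2469 TPM, and *GPX2* and *CTA1* lie at the bottom, at medians of 13.3 and 9.88 TPM.

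Technical replicate numbers were compared in the model with speed, biological replicate and technical replicate as terms (edgeR, FDR below 0.01 over 5142 genes). *AHP1*, *GPX1* and *TRX2* were lower in technical replicate 3 than in 1, and *TSA1* was higher. The values of single genes are given as CPM, the count relative to the TMM-scaled total of its library.

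*AHP1* ranged from 720 to 939 CPM in the 8 libraries of technical replicate 1 (median 792), from 617 to 739 in technical replicate 2 (median 643) and from 431 to 600.2 in technical replicate 3 (median 533). The libraries of technical replicate 3 did not overlap with those of the other numbers, and the highest libraries of number 2 overlapped with the lowest of number 1. *AHP1* fell to 0.656 times its level from number 1 to 3 (log2 fold change -0.61, SE 0.0495, FDR 1.6e-09) and to 0.823 times from 1 to 2 (-0.28, FDR 0.00089), and it was lower in all 8 matched pairs of libraries in both comparisons. Within biological replicate 1 alone the difference between 1 and 2 was -0.28 with an FDR of 0.0129.

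*GPX1* was between 42.2 and 53.5 CPM in technical replicate 1 (median 49.0), between 37.6 and 44.9 in 2 (median 40.7) and between 27.4 and 34.7 in 3 (median 32.9). Number 3 again lay below all libraries of numbers 1 and 2. The fall from number 1 to 3 was to 0.662 times the level (log2 fold change -0.60, SE 0.0501, FDR 2.54e-09), and that from 1 to 2 was to 0.845 times (-0.24, FDR 0.00302). Within biological replicate 2 alone the latter was -0.18 with an FDR of 0.0961, and without 290 µL/s B2T1 it was -0.22 with an FDR of 0.0104.

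*TRX2* was between 79.97 and 88.8 CPM in technical replicate 1 (median 84.5), between 72.0 and 87.6 in 2 (median 76.4) and between 53.6 and 70.8 in 3 (median 60.9). Numbers 1 and 2 overlapped and number 3 lay below both. *TRX2* fell to 0.730 times its level from number 1 to 3 (log2 fold change -0.45, SE 0.0474, FDR 4.91e-08), and the difference between 1 and 2 did not pass (-0.10, FDR 0.168), except within biological replicate 2 alone (-0.18, FDR 0.00909).

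*TSA1* went the other way. It was between 817 and 926 CPM in technical replicate 1 (median 882), between 856 and 1015 in 2 (median 940) and between 893 and 1165 in 3 (median 1027), with overlap between all 3 numbers. It rose to 1.16 times its level from number 1 to 3 (log2 fold change 0.21, SE 0.0315, FDR 4.59e-06) and was higher in all 8 matched pairs. Within biological replicate 2 alone the difference was 0.31 (FDR 1.46e-06), and within biological replicate 1 alone it was 0.11 and did not pass (FDR 0.0574). A joint test over all 3 numbers of a difference between the cultures gave an FDR of 0.0242, which also did not pass. In 1 of 8 alternatives that joint test passed (lowest FDR 0.0056). A difference between the cultures in numbers 3 and 1 alone was not tested.

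The other 6 members did not pass between technical replicates 3 and 1. *SOD1* was 1.07 times as high (FDR 0.0379), and with total counts in place of TMM its log2 fold change of 0.15 passed (FDR 0.00298). Within biological replicate 2 alone *SOD1* also passed (0.19, FDR 0.00615), and within biological replicate 1 alone it had 0.00 (FDR 0.958). *SOD2* was 1.03 times as high (95% interval 0.952 to 1.12), *YAP1* 0.988 times (0.949 to 1.03), *CTA1* 0.988 times (0.883 to 1.11), *CTT1* 0.922 times (0.738 to 1.15) and *GPX2* 0.895 times (0.772 to 1.04). The interval of *YAP1* was the narrowest of these and those of *CTT1* and *GPX2* the widest.

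In all, 3 of 10 members were lower and 1 was higher in technical replicate 3 than in 1, against 23.1% of all genes lower and 26.2% higher, so the share of members called was near that of all genes. Within biological replicate 1 alone 3 members were called against 27.9% of genes, and within biological replicate 2 alone 6 against 42.7%, with *SOD1* and *SOD2* added to the 4. With total counts in place of TMM, 1764 of 2647 genes called were higher, against 1349 of 2537 with TMM, and the 4 members kept their direction and their call. Between numbers 2 and 1, 2 members were lower and 0 higher, against 2.51% and 1.77% of all genes. Between numbers 3 and 2 the same 4 members passed, 3 lower against 18.4% of genes and 1 higher against 20.1%, with *TRX2* at 0.785 times, *GPX1* at 0.783 times, *AHP1* at 0.797 times and *TSA1* at 1.09 times the level. The *TSA1* call (FDR 0.00272) was lost when any of 4 libraries was left out (B2T3 at 50, 130 or 210 µL/s, or B2T2 at 210 µL/s), with a lowest log2 fold change of 0.10, and within biological replicate 1 alone it was 0.04 (FDR 0.453). Within single cultures *AHP1* had -0.47 (biological replicate 1) and -0.20 (biological replicate 2) between numbers 3 and 2, and *TRX2* -0.48 and -0.23, each past the threshold. The 4 calls between numbers 3 and 1 held with each library left out in turn, 50 µL/s B1T3 included. The mean fragment length had medians of 186.3, 186.7 and 185.3 bases in numbers 1, 2 and 3.

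**Figure D2:**
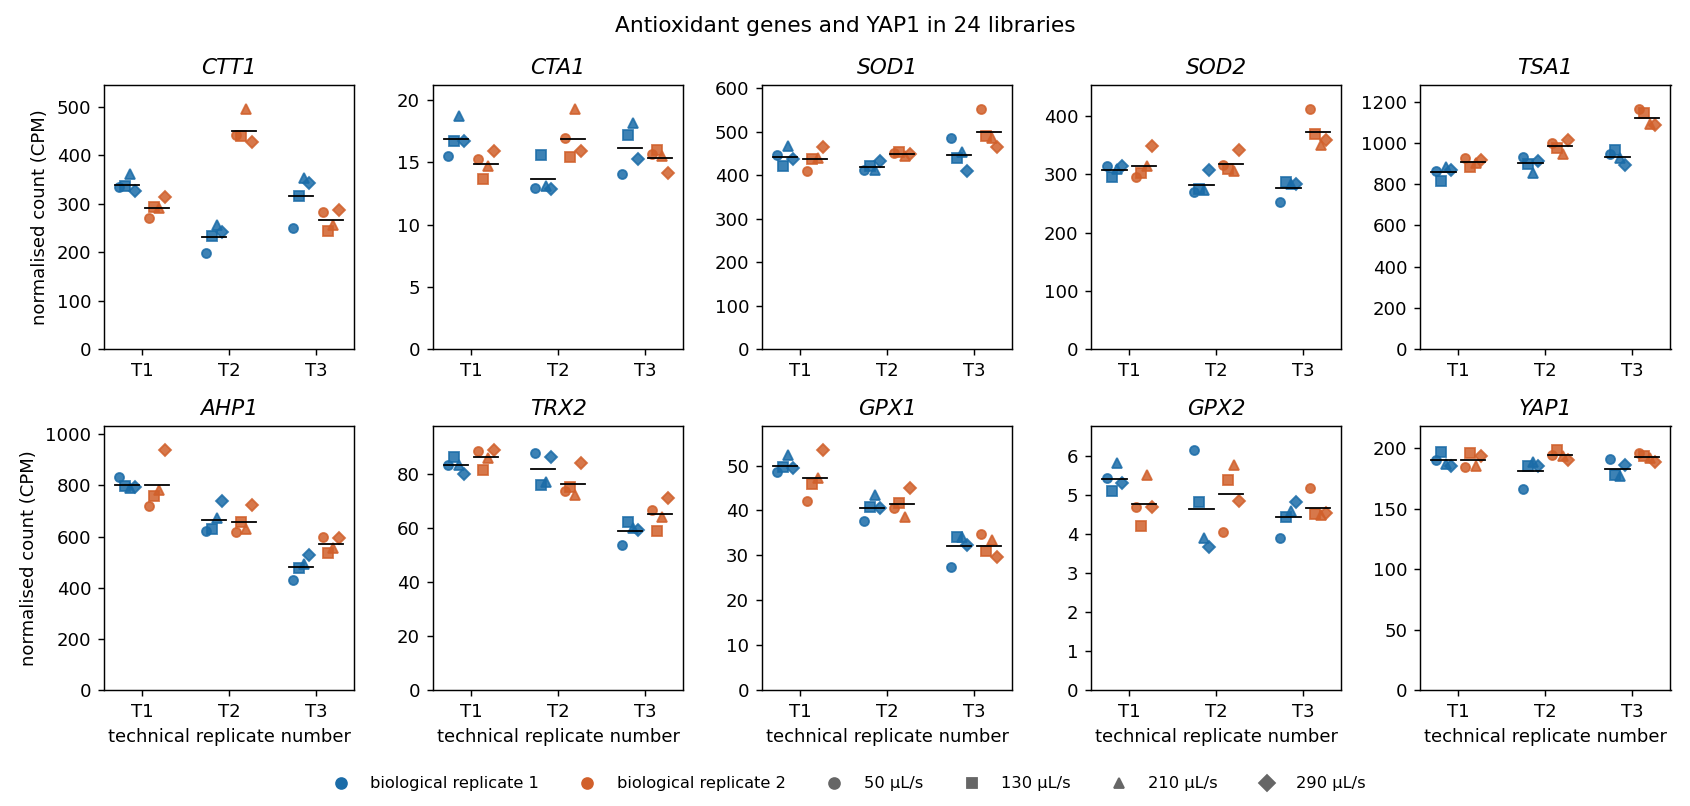
Normalised count (CPM) of each gene in each library by technical replicate number, with the colour for the biological replicate, the symbol for the speed and a line for the mean of 4 libraries. *AHP1*, *GPX1* and *TRX2* are lowest in T3, *TSA1* has its highest means there, and *CTT1* at T2 is low in biological replicate 1 (198 to 256 CPM) and high in biological replicate 2 (428 to 496 CPM).

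The peroxiredoxins *AHP1* and *TSA1* therefore changed their proportion. The ratio of *AHP1* to *TSA1* in TPM was 0.909 to 1.202 in the 8 libraries of technical replicate 1 (median 1.06), 0.723 to 0.949 in number 2 and 0.535 to 0.697 in number 3 (median 0.599). All libraries of number 3 were below all of the others, and numbers 1 and 2 overlapped. The ratio of *GPX1* to *GPX2* in TPM was 8.18 to 10.9 in number 1 and 6.21 to 7.37 in number 3, with no overlap, while number 2 spanned 5.83 to 10.6.

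The related genes gave the wider pathway, from lists of 70 genes of which 63 were in the files. Of 14 genes of glutathione synthesis, glutathione transfer and glutaredoxins, 10 were lower and 1 was higher in technical replicate 3 than in 1, with a median log2 fold change of -0.21 against 0.01 for all genes. Beside the counts of this and the other lists stand the 23.1% of all genes that were lower and the 26.2% that were higher in this comparison. The largest changes in that list were -0.57 for *GRX1*, a glutaredoxin, -0.48 for *GTT1*, a glutathione S-transferase, and -0.37 for *GSH1*, which catalyses the rate-limiting step of glutathione synthesis. Of 9 further peroxiredoxin and thioredoxin genes, 4 were lower and none was higher (median -0.14), a share called that is near that of all genes, led by *PRX1*, the mitochondrial peroxiredoxin (-0.49), *TSA2*, the paralog of *TSA1* (-0.47), and *TRR2*, the mitochondrial thioredoxin reductase (-0.47). *TSA2* fell while *TSA1* rose. Reads that match more than 1 gene were divided by estimation, and the part of this division in the opposite directions of the paralogs was not tested.

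Of 5 genes for superoxide dismutase cofactors and cytochrome *c* peroxidase, 2 were higher and 1 was lower. *CCP1*, the cytochrome *c* peroxidase, was lower by 0.36 on the log2 scale, and *MTM1* and *SMF2*, which act in manganese supply to *SOD2* protein, were higher by 0.24 and 0.21. Of 5 regulators around *YAP1*, 1 was higher and 2 were lower, a share also near that of all genes: *SKN7*, a partner of Yap1 at peroxide-induced genes, rose by 0.30, and *CAD1*, a Yap family factor, and *CRM1*, the nuclear exporter of Yap1, had values of -0.14 and -0.06. Of 8 other Yap1 targets, 2 were lower and 1 was higher (median -0.07), among them *OYE2*, an NADPH dehydrogenase, at -0.57, *ATR1*, a membrane transporter, at 0.26, and *TAL1*, the transaldolase, at -0.24. All 10 targets of Msn2 and Msn4 were lower (median -0.76), led by the heat shock genes *HSP26* (-1.93), *HSP12* (-0.96) and *HSP104* (-0.95). *CTT1*, itself a textbook target of Msn2 and Msn4, did not pass, with a log2 fold change of -0.12 (SE 0.154, FDR 0.529). Of 12 peroxisomal and glucose-repressed genes, 1 was higher, *PEX11*, a factor of peroxisome division (0.33), and 1 lower, *PIP2*, an oleate-response factor (-0.26). Between technical replicates 2 and 1, 7 of the 10 targets of Msn2 and Msn4, 3 of the 9 peroxiredoxin and thioredoxin genes, *GRX1* and *CCP1* were lower, and no listed gene was higher, against 2.51% and 1.77% of all genes.

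*CTT1* differed between the cultures in a way that depended on the technical replicate number. In technical replicate 1, biological replicate 1 gave 335, 336, 361 and 327 CPM at 50, 130, 210 and 290 µL/s, and biological replicate 2 gave 270, 293, 292 and 314 CPM. In technical replicate 2 the values were 198, 233, 256 and 242 CPM in biological replicate 1 and 442, 440, 496 and 428 CPM in biological replicate 2. In technical replicate 3 they were 250, 316, 353 and 342 CPM in biological replicate 1 and 282, 244, 256 and 288 CPM in biological replicate 2. Biological replicate 1 was therefore the higher culture in number 1, the lower in number 2, without overlap in either, and overlapped with the other culture in number 3.

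Between technical replicates 2 and 1, *CTT1* fell by 0.56 on the log2 scale within biological replicate 1 (SE 0.0636, FDR 0.00068) and rose by 0.63 within biological replicate 2 (SE 0.0579, FDR 1.74e-05), in 4 of 4 speeds in each culture. The pooled difference was 0.08 with an FDR of 0.793. From number 2 to 3 it rose by 0.43 in biological replicate 1 (FDR 0.000823) and fell by 0.75 in biological replicate 2 (FDR 3.48e-07). Within number 2 alone, biological replicate 2 was 0.96 higher on the log2 scale (FDR 1.04e-08).

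From technical replicate 1 to 3, *SOD2* rose by 0.24 within biological replicate 2 (FDR 0.00134), where it was higher in 4 of 4 pairs. Within biological replicate 1 the difference was -0.17, with *SOD2* lower in 4 of 4 pairs, and did not pass (FDR 0.0142).

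The interaction of biological and technical replicate had an FDR of 2.19e-08 for *CTT1* and of 0.00219 for *SOD2*, so 2 of 10 members were called against 6.3% of all genes. These FDRs take the 4 libraries of a combination, which differ in speed, as repeats, although no combination was itself repeated. For *CTT1* the highest FDR was 7.94e-08 over 8 alternatives and 2.25e-07 with each library left out in turn. *CTA1* had an FDR of 0.0178, *TSA1* of 0.0242 and *AHP1* of 0.027, and none of these passed. This interaction accounted for 75.2% of the variance of *CTT1* in log2 CPM and for 46.8% of that of *CTA1*, against a median of 7.05% over all genes. The 4 means of *CTA1* in the order B1T1, B1T2, B2T1 and B2T2 were 16.9, 13.6, 14.9 and 16.9 CPM, each over 4 libraries.

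Of the 12 peroxisomal and glucose-repressed genes listed, 8 were called for this interaction, against 6.3% of all genes. The lists were chosen with earlier results of these data known, so this is not an independent comparison. Of the 10 targets of Msn2 and Msn4 none was called. The lowest FDR among them was 0.0103, just above the threshold, for *TPS2*, named after its value was seen. Of the peroxiredoxin and thioredoxin list, 2 of 9 were called, *TSA2* (FDR 0.00858) and *MXR1*, a methionine sulfoxide reductase (FDR 0.00723), both named here after their values were seen. The 8 peroxisomal and glucose-repressed genes were *ADR1*, *FOX2*, *POT1*, *ACS1*, *ADH2*, *ICL1*, *MLS1* and *JEN1*, a choice also made after their values were seen. *OAF1*, *PIP2*, *POX1* and *PEX11* of that list were not called (FDR 0.248 to 0.943). *JEN1* and *ICL1*, described next, had the highest F values of the list (185 and 152). *ICL1*, the isocitrate lyase of the glyoxylate cycle, had means of 85.4, 38.1 and 184 CPM in B1T1, B1T2 and B1T3 and of 60.7, 198 and 118 CPM in B2T1, B2T2 and B2T3. *JEN1*, a transporter of lactate and pyruvate, had 112, 37.4 and 159 CPM in the first culture and 65.2, 206 and 101 CPM in the other. Within biological replicate 1 the means of both genes and of *CTT1* were lowest in number 2, and within biological replicate 2 they were highest there. *ICL1* and *JEN1* had a higher mean in B1T3 than in B1T1, and *CTT1* a lower one (316 ± 46.3 against 339.7 ± 14.7 CPM, SD, n = 4). The lower mean of *CTT1* leaned on 50 µL/s B1T3, at 250 CPM. The other libraries of B1T3 were at 316 to 353 CPM and those of B1T1 at 327 to 361 CPM.

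**Figure D3:**
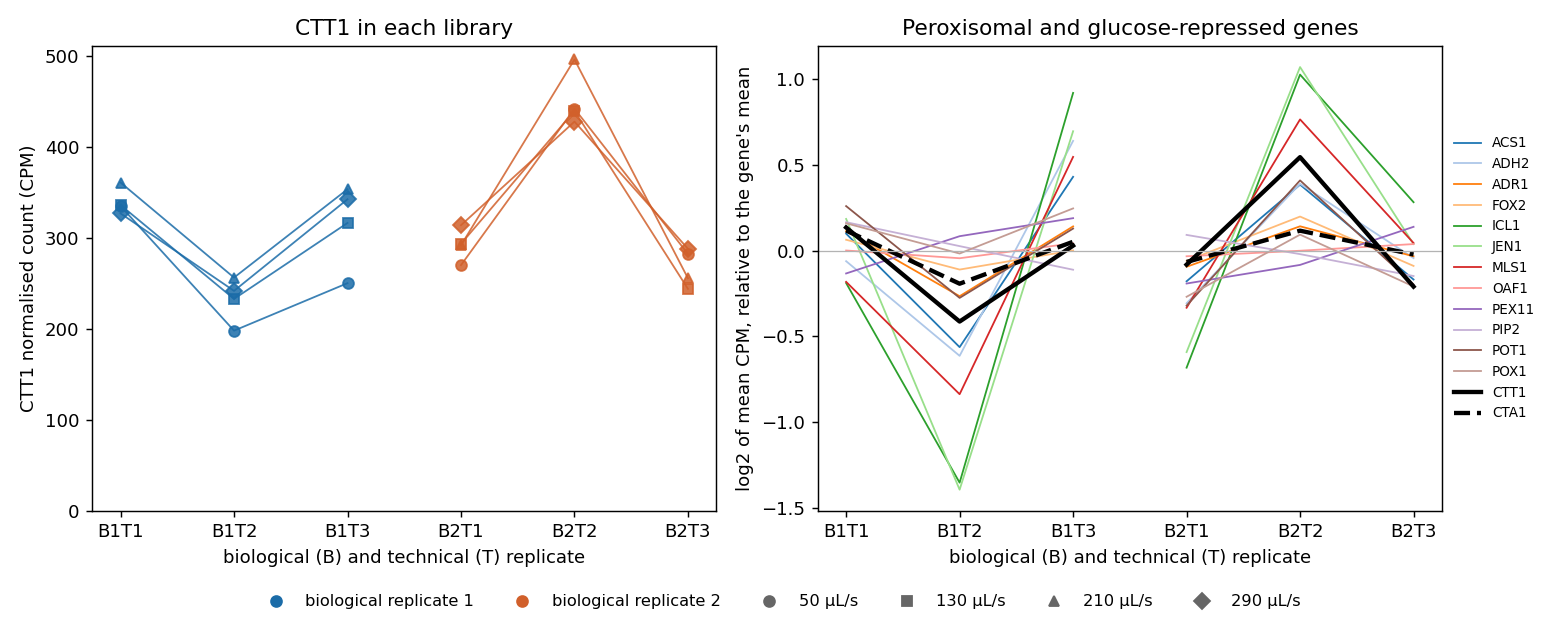
Left, *CTT1* (CPM) in each library by biological and technical replicate, with lines joining libraries of 1 speed and 1 culture. Right, log2 of the mean CPM of 4 libraries relative to each gene's own mean, for the 12 listed peroxisomal and glucose-repressed genes and, in black, *CTT1* and *CTA1*: *CTT1* dips in B1T2 and peaks in B2T2, with values of 198 to 256 and 428 to 496 CPM.

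The cultures were compared with the study's model (speed and biological replicate as terms). No member was called, nor was any of 5142 genes (0.0%), while 3 members and 531 genes had an unadjusted p below 0.05. DESeq2 called 13 genes, *SOD2* among them, and limma-voom called 0. *SOD2* ranged from 253 to 314 CPM in biological replicate 1 (median 285) and from 296 to 413 CPM in biological replicate 2 (median 329), with overlap, and was 1.16 times as high in biological replicate 2 (log2 fold change 0.22, SE 0.0503, FDR 0.111). *TSA1* ranged from 817 to 966 CPM in biological replicate 1 (median 897) and from 882 to 1165 in biological replicate 2 (median 988), and was higher there by 0.16 on the log2 scale (SE 0.0461, FDR 0.185). *YAP1* was 1.04 times as high (FDR 0.405).

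With technical replicate added as a term, 1 member was called against 0.37% of genes: *TSA1*, at a log2 difference of 0.16 (SE 0.0257, FDR 0.00216). With the combinations of speed and technical replicate as a block it was 0.16 and did not pass (FDR 0.0138). *SOD2* had 0.21 in the model with the term (FDR 0.0177).

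Within technical replicate 1 alone no member was called, as was no gene (0.0%, with 1 member and 322 genes at an unadjusted p below 0.05). Within number 2 alone *CTT1* and *SOD2* were called against 7.88% of genes, and within number 3 alone *SOD2* and *TSA1* against 2.41%. *SOD2* in number 3 was 253, 287, 284 and 283 CPM in biological replicate 1 and 413, 370, 351 and 359 CPM in biological replicate 2, in order of speed, with no overlap (log2 difference 0.43, FDR 0.00664). In number 1 the cultures overlapped, with a log2 difference of 0.03 (FDR 0.905). *TSA1* in number 3 was 893 to 966 CPM in biological replicate 1 and 1088 to 1165 in biological replicate 2 (0.27, FDR 0.000931).

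Pipetting speed was compared with 50 µL/s in the study's model. No member was called at 130, 210 or 290 µL/s, against 0.0%, 0.0% and 0.0389% of all genes. No member had an unadjusted p below 0.05 in any of these comparisons, while 88, 154 and 541 genes did. DESeq2 called 0, 0 and 11 genes and limma-voom 0, 0 and 1, with no member among them. The 95% intervals of 290 against 50 µL/s reached from 0.958 to 1.06 times for *YAP1*, from 0.889 to 1.07 times for *TSA1* and from 0.889 to 1.05 times for *SOD1*, and were wider for *CTT1* (0.840 to 1.43 times) and *AHP1* (0.897 to 1.42 times).

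*AHP1* had the largest difference at 290 µL/s. It was 431 to 832 CPM at 50 µL/s (median 618), 478 to 796 at 130 µL/s (median 643), 492.8 to 790 at 210 µL/s (median 651) and 529 to 939 at 290 µL/s (median 730.2), and all 4 ranges overlapped. The log2 fold change of 290 against 50 µL/s was 0.18 (SE 0.160, FDR 0.68), and 4 of 6 matched pairs were higher. With technical replicate as a term, 0 members passed against 4.22% of genes, and *AHP1* had 0.17 (SE 0.0569, FDR 0.047), or 0.23 without 50 µL/s B2T3 (FDR 0.00616). With the 6 combinations of biological and technical replicate as a block, which pair the libraries across speeds, *AHP1* was the 1 member called, against 6.55% of genes, at 0.18 (SE 0.0438, FDR 0.00867). This call held in 9 of 24 fits with a library left out, and without 50 µL/s B1T3 its FDR was 0.0244. The median fragment length was 183.6 bases at 50 µL/s and 187.3 at 290 µL/s: with it as a covariate, *AHP1* had 0.09 in the study's model (FDR 0.985) and 0.20 beside the block (FDR 0.0516).

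The slope over the 4 speeds was fitted with biological and technical replicate as terms. No member passed against 4.71% of genes, and *AHP1* had a slope of 0.05 on the log2 scale per 80 µL/s (SE 0.0180, FDR 0.044). With the block it was 0.06 and passed (FDR 0.00947), as the 1 member against 7.04% of genes, in 6 of 24 fits with a library left out. Without 50 µL/s B2T3 the slope passed without the block too (0.07, FDR 0.00418). The interactions of speed with biological replicate and of speed with technical replicate called no member and no gene (0.0% each, with no member and 51 and 134 genes at an unadjusted p below 0.05).

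**Figure D4:**
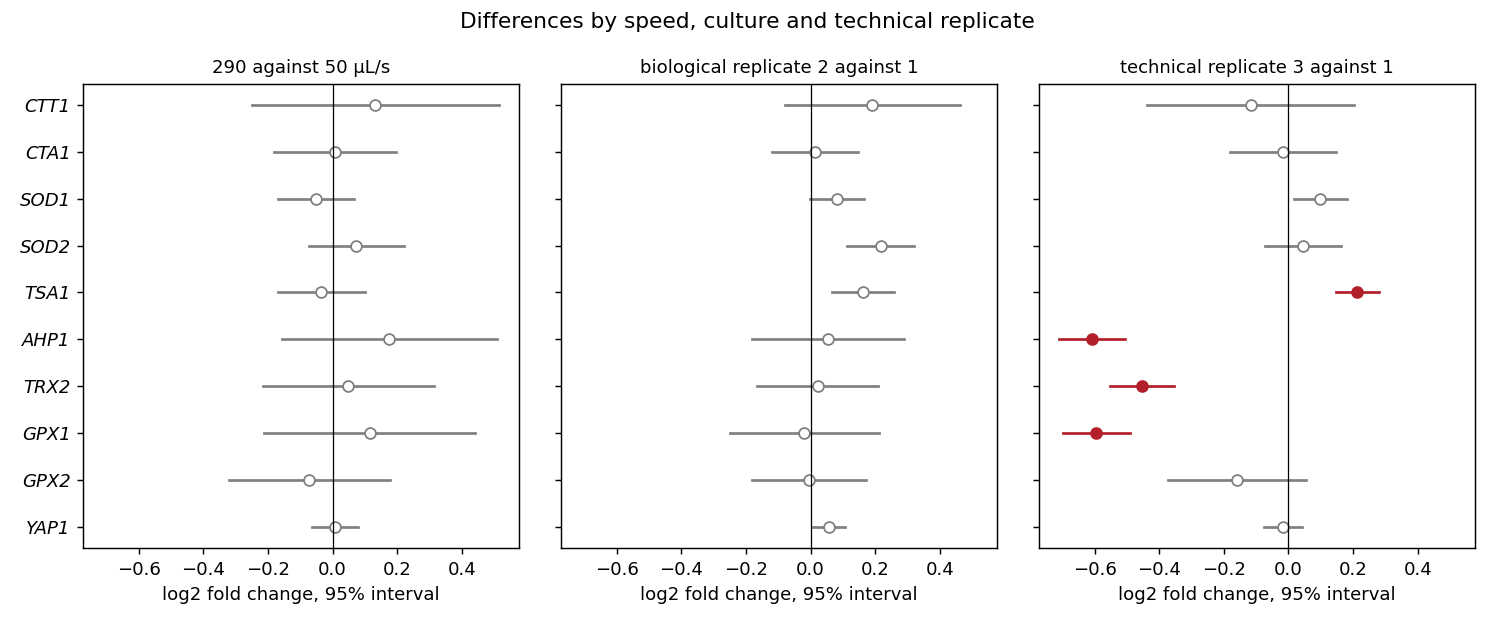
Log2 fold change of each gene with its 95% interval for 290 against 50 µL/s, biological replicate 2 against 1 and technical replicate 3 against 1, with filled red points for an FDR below 0.01. The first 2 panels are from the study's model and the last is from the model with technical replicate as a term. In the first 2 panels no point is filled, and in the last *TSA1* (0.21) lies to the right and *AHP1* (-0.61), *GPX1* (-0.60) and *TRX2* (-0.45) to the left. With the technical replicate term, *TSA1* passed between the cultures (0.16, edgeR FDR 0.00216), which is not drawn.

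In the related lists, no gene passed in the study's model at 290 against 50 µL/s or between the cultures. With the technical replicate term, 8 of the 63 list genes passed at 290 µL/s, against 4.22% of all genes. The targets of Msn2 and Msn4 among them were *HSP26* (0.60), *HSP12* (0.34), *GPH1*, the glycogen phosphorylase (0.27), and *SSA3*, a heat-inducible Hsp70 (0.23). The others were *GTT1* (0.27), *TRR2* (0.20), *GLR1*, the glutathione reductase (0.12), and *SKN7* (-0.20). Between the cultures *CTR1*, a copper transporter, was the only list gene called in that model (-0.32), against 0.37% of all genes.

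*YAP1* was the steadiest member. It ranged from 166 to 199 CPM over 24 libraries, with an SD of 0.06 on the log2 scale, and 6.03% of all genes had a lower SD. The lowest library, 50 µL/s B1T2, was at 166 CPM, and the other 23 were at 177 CPM or more. Technical replicate number took 2.18% of its variance, against 86.3% for *GPX1*, 81.4% for *AHP1* and 81.4% for *TRX2* and a median of 34.7% over all genes. Biological replicate took 25.9% of the variance of *YAP1*, 44.9% of that of *SOD2* and 36.9% of that of *TSA1*, against a median of 2.99%. The interaction of biological and technical replicate took 13.9% of that of *YAP1*, against a median of 7.05%. Speed took between 2.39% (*TSA1*) and 11.6% (*CTA1*) of the variance of a member, against a median of 8.37%. *GPX2*, the member with the fewest reads, had 71.3% of its variance outside all of these terms.

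Across the 24 libraries, 7 of 45 pairs of members had a Pearson correlation of log2 CPM above 0.5 and 1 had one below -0.5. The share of such pairs among all genes was not worked out. *AHP1* had 0.92 with *GPX1* and 0.91 with *TRX2*, and *TRX2* had 0.85 with *GPX1*. The pairs among *SOD1*, *SOD2* and *TSA1* had 0.69 to 0.73. The catalases *CTT1* and *CTA1* had 0.68, and *TSA1* with *GPX1* had -0.61. Libraries of the same technical replicate number enter each correlation together, and after removal of the means of the 6 combinations of biological and technical replicate the order of the pairs was different. The highest values were then 0.81 for *SOD2* with *AHP1* and 0.72 for *SOD2* with *GPX1*, which had 0.21 and 0.01 before. *AHP1* with *GPX1* had 0.68, *AHP1* with *TRX2* 0.53, *TRX2* with *GPX1* 0.27, the catalases 0.43 and *TSA1* with *GPX1* 0.07. *SOD1* with *TSA1* had 0.50, and *SOD2* had 0.41 with *TSA1* and 0.40 with *SOD1*. The highest correlation of *YAP1* with another member was 0.46, with *SOD2*. After the removal its values ran from -0.57, with *GPX2*, through -0.49 with *TRX2* and -0.45 with *TSA1*, to 0.26 with *SOD1*. The library 50 µL/s B1T2 held the lowest *YAP1* (166 CPM) and the highest *GPX2* (6.15 CPM) of the 24. Its *TRX2* (87.6 CPM) and *TSA1* (935 CPM) were the highest of B1T2. How far the negative values rest on this library was not tested.

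**Figure D5:**
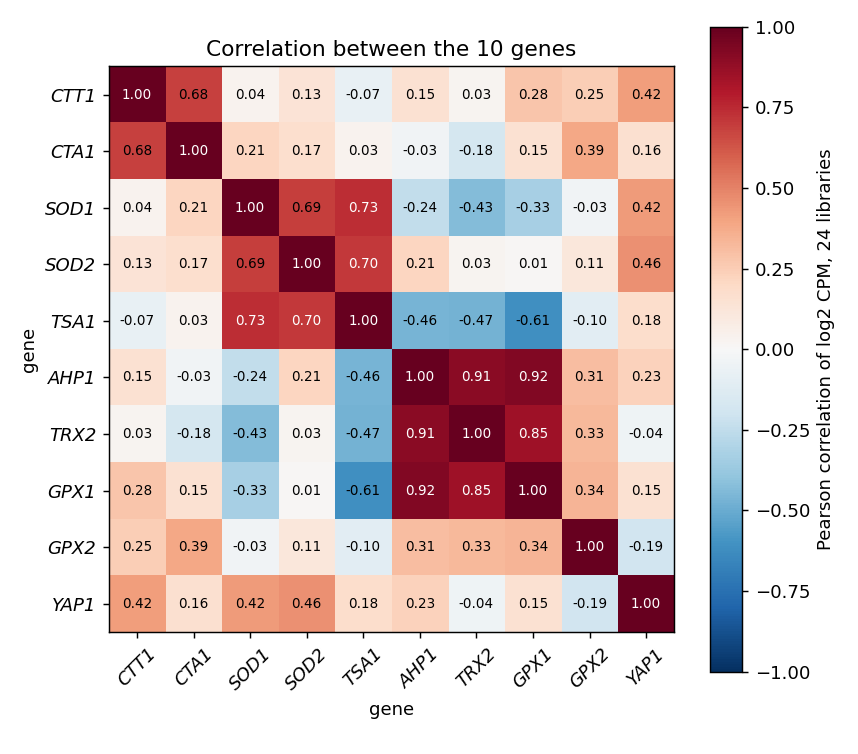
Pearson correlation of log2 CPM between the 10 genes over 24 libraries, printed in each cell and shown from blue (-1) to red (1). *AHP1*, *TRX2* and *GPX1* form a red block of 0.85 to 0.92, *SOD1*, *SOD2* and *TSA1* one of 0.69 to 0.73, and *TSA1* with *GPX1* is the lowest cell at -0.61.

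The genes most like each member over the 24 libraries were found by the same correlation. *AHP1* was closest to *PRX1* (0.985), *PNC1*, the nicotinamidase (0.980), and YNL115C (0.977), and 217 genes were above 0.9. *GPX1* was closest to *PGM2*, the major phosphoglucomutase (0.970), *EMI2* and *DCS2* (0.968 each), with 107 genes above 0.9. *TRX2* was closest to *YET3* (0.970), *YNK1* and *PDX3* (0.956 each), with 136 genes. These 3 members shared their pattern with many genes, whereas the others had at most 3 genes above 0.9. Technical replicate number took 81.4%, 86.3% and 81.4% of the variance of *AHP1*, *GPX1* and *TRX2*, and its differences enter these correlations. Likeness was not computed after removal of the means of the combinations, and the number above 0.9 for a typical gene was not worked out.

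*CTT1* was closest to *CAT2*, a carnitine acetyltransferase of peroxisomes and mitochondria (0.941), *NDE2*, an external NADH dehydrogenase of mitochondria (0.914), and *GID11* (0.906). *SOD1* was closest to *QCR6*, a subunit of respiratory complex III (0.914), and to *ATP2* and *ATP1*, subunits of the mitochondrial ATP synthase (0.903 and 0.9004). *SOD2* was closest to *TMA17* (0.926), *NDI1*, the internal NADH dehydrogenase of mitochondria (0.908), and *UBX6* (0.897). *TSA1* was closest to the ergosterol synthesis genes *ERG26* (0.905), *ERG28* (0.904) and *ERG20* (0.889). *YAP1* (*PEX14*, 0.834), *CTA1* (*DSF1*, 0.752) and *GPX2* (*MNS1*, 0.729) had no gene above 0.9.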

How the data were processed

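RNA-seq data of 24 samples of yeast were used. The authors trimmed the reads with fastp 0.23.2, aligned them to the W303 genome with STAR 2.7.10a and counted them by gene and strand with RSEM. They deposited, per sample, expected counts (estimates of read pairs per gene, not normalized, 23.8% of them not whole) and TPM, normalized by the authors for length and library. The deposited tables also hold other columns, length and effective length, whose difference was taken as mean fragment length. The table of the whole series and the growth assay were not used here.

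Expected counts were rounded, and those genes whose count averaged at most 1 were excluded as in the study, which left 5142 of 5193. Gene names came from the R64 annotation by systematic name (5151 matched), and no coordinates of that build were used. Tests used R 4.3.3 and edgeR 4.0.16 (TMM, glmQLFit, glmQLFTest) over all 24 samples with the study's model, in which speed and biological replicate are terms, and an FDR below 0.01 (Benjamini-Hochberg, over all genes tested). Technical replicate was added as a term for its own comparisons, for the slope over speed and, where stated, for speeds and cultures. DESeq2 1.42.0 and limma 3.58.1 (voom), other scalings, filters and models, fits within 1 biological or technical replicate alone, and each library left out in turn were alternatives. The script was tested on simulated data. CPM were scaled by TMM, and log2 CPM had a prior count of 2. Technical replicates of 1 speed and culture differed beyond counting noise (chi-square per degree of freedom at least 9.10 in 24 pairs).

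Libraries of the same biological and technical replicate come from the same culture and were taken as blocks that pair the speeds. After removal of the speed means alone they deviated together across speeds (correlation above 0.1 in 36 of 36 pairs, median 0.522). Differences between cultures and between technical replicate numbers remain in this correlation, so it does not show pairing beyond those terms. Members and gene lists were chosen with earlier results of these data known. All 10 members are named. From a list, at most 3 genes with the largest change among those called between technical replicates 3 and 1 are named, and any called in a speed or culture comparison. For the interaction of biological and technical replicate, listed genes were named outside this rule, after their values were seen. For likeness, the 3 genes with the highest correlation are given. The listed genes *MXR2*, *GRX2*, *ATX1*, *YBP1*, *DDR2*, *TPS1* and *ALD3* were not analysed here.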

Additional observations from a re-analysis of the deposited data

Results flagged for a closer look

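In 130 groups of 4 to 8 libraries, 9 held a library that lay far from the others of its group, where chance gives about 5% of groups. For *SOD2*, 130 µL/s B2T3 was at 370 CPM against 276 to 310 CPM in the other libraries at that speed, 290 µL/s B2T1 was at 349 against 296 to 314 in technical replicate 1, 290 µL/s B1T2 was at 307 against 270 to 276 in B1T2, and 50 µL/s B1T3 was at 253 against 283 to 287 in B1T3. For *YAP1*, 50 µL/s B1T2 was at 166 CPM against 185 to 199 in technical replicate 2 and 185 to 189 in B1T2. For *AHP1*, 50 µL/s B1T1 was at 832 CPM against 790 to 796 in B1T1. For *CTA1*, 130 µL/s B1T2 was at 15.6 CPM against 12.9 to 13.1, and for *GPX2*, 50 µL/s B2T3 was at 5.17 CPM against 4.48 to 4.53.

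The cultures differed in how technical replicate numbers compared for *CTT1* (interaction, edgeR FDR 2.19e-08) and *SOD2* (FDR 0.00219). What libraries with the same number shared, and its part in these differences, was not tested.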

How the results depend on the processing

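Of 1537 values of single members under alternatives, 1500 kept their side of the threshold, and of 3360 with a library left out, 3316 did. Of these, 81 and 188 values had the other sign than in the report, none past the threshold in either fit, with sizes up to 0.23 and 0.07 on the log2 scale. They include *CTT1* between the cultures (-0.22 and -0.23 within technical replicates 1 and 3 alone) and *SOD2* between technical replicates 3 and 1 (-0.17 within biological replicate 1 alone). *CTT1* turned its direction within biological replicate 1 alone, at -0.56 between technical replicates 2 and 1 and at 0.43 between 3 and 2. At 290 against 50 µL/s the members called went from 0 to 1 with the replicate block (combinations of biological and technical replicate). In that blocked fit, 0 passed with fragment length as a covariate (an alternative chosen after seeing the data, as were all with 2 changes together and those of the slope and the interactions), and 0 to 1 with a library left out. For the slope over speed the count went from 0 to 1 at an FDR of 0.05, with the block and, of the left-out fits (0 to 1), without 50 µL/s B2T3. In its blocked fit it was 2 at an FDR of 0.05, 0 with fragment length and 0 to 1 with a library left out. With the technical replicate term, 290 against 50 µL/s called 1 at an FDR of 0.05 and 0 to 1 with a library left out (1 without 50 µL/s B2T3).

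Between the cultures the count went from 0 to 1 with DESeq2, to 1 with the technical replicate term (also with limma-voom, DESeq2 size factors or total counts), to 2 with that term in DESeq2, and to 2 within technical replicate 2 or 3 alone. With the term it went from 1 to 2 at an FDR of 0.05 and 1 to 2 with a library left out (2 without 50 µL/s B1T1 or B2T1). Between technical replicates 2 and 1 it was 1 to 2 with a library left out, and between 3 and 2 it was 3 to 5. For the interaction of biological and technical replicate it was 5 at an FDR of 0.05, 4 with DESeq2 and 2 to 3 with a library left out. For the next values only the culture means were removed, so differences between speeds and between technical replicate numbers remain in them. Libraries of the same speed and technical replicate number deviated together between the cultures in 9 of 12 pairs (above 0.1). The median was 0.349, against 0.007 for other pairs. Those of the same speed and culture did so between technical replicates in only 4 of 24 pairs (median -0.001). Blocks there changed no count in the models of the report apart from *TSA1* between the cultures. The causes of these changes were not tested. Depth limits *GPX2* and *CTA1* most.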
